A study of Mus musculus with 16 samples.

Results

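Inflammation of the hippocampus was examined by comparing 4 wild-type libraries labelled LPS with 4 wild-type libraries labelled PBS, which are 8 of the 16 libraries of the series, over all 16269 genes that passed the filter on low counts (of 19449 listed). The mice were 3 months old, and total RNA of the hippocampus was sequenced. The LPS group is labelled as injected with lipopolysaccharide, a bacterial cell wall component, and the PBS group with the vehicle; both groups are labelled wild type. The other 8 libraries are labelled as knockouts of Tspo, the gene of the mitochondrial translocator protein, with the same 2 injections, and 1 of them held a wild-type level of Tspo. The labels used here give neither the dose nor the time from injection to collection. No source says whether replicates are separate animals, so n counts libraries, and each p-value measures only the spread between these libraries.

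Lipopolysaccharide is bound by CD14 and the receptor TLR4, which act through NF-kappaB and the interferon regulatory factors. Cytokines and type I interferon made in response then act on neighbouring cells through STAT factors. In the brain, endothelial cells, microglia and astrocytes all respond to a peripheral dose, and oligodendrocytes, which make myelin, are known to be sensitive to inflammation.

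The 8 libraries were not alike within their groups. LPS replicate 1 lacked most of the inflammatory rise that replicates 2, 3 and 4 shared. The labels are the only record of the injections used here, and whether this library is labelled correctly was not tested; "LPS replicate 1" below means the library labelled so. The genes that carry each result are therefore given by library and the rest by their log2 fold change ± SE. PBS replicate 1 and LPS replicate 1 nearly lacked the 18 choroid plexus transcripts, with summed levels of 63.4 and 76.1 CPM (counts scaled to library size) against 666 to 3713 CPM in the other 6. The 24 markers of neighbouring brain regions summed to 1179 and 1200 CPM in PBS replicates 2 and 3 and to 385 to 476 CPM in the other 6. Y-linked transcripts summed to 148 CPM in PBS replicate 4 and in LPS replicate 1 and to 3.37 to 4.36 CPM in the rest; these same 2 libraries share a code in their titles. PBS replicates 1 to 3 share a code of their own and LPS replicates 2 to 4 another, so among these 6 libraries code and treatment cannot be told apart. Y-linked level was alike in those 6 and did not separate the treatments. Totals ran from 30198619 to 50009041 counts.

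After LPS 1394 genes (8.57% of those tested) passed the test, of which 768 were higher (4.72%) and 626 lower (3.85%), at a Benjamini-Hochberg adjusted p below 0.05 in edgeR's quasi-likelihood test. The median log2 fold change was 0.81 among the higher genes, -0.49 among the lower genes and 0.002 over all genes. Of the higher genes 334 changed by more than 1 on the log2 scale, as did 120 of the lower genes. The 4 LPS libraries lay wholly above the 4 PBS libraries in 686 genes (4.22%) and wholly below in 717 (4.41%).

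Most of the rises were far smaller in LPS replicate 1 than in the other 3 LPS libraries. Among the 768 higher genes, LPS replicates 2, 3 and 4 lay above every PBS library in 758, 764 and 766 genes, and replicate 1 in 341 (44.4%). Over all genes tested the share was 24.4% for replicate 1 and 27.3% to 30.9% for the others. Among the 626 lower genes, the 4 LPS libraries lay below every PBS library in 498, 570, 613 and 585 genes, which is 79.6% for replicate 1. Over all genes tested the share was 23.6% for replicate 1 and 26.6% to 30.7% for the others. Its median difference from the PBS mean was 0.12 over the higher genes and -0.32 over the lower genes, where the others stood at 0.93 to 1.03 and -0.57 to -0.49. These genes were called with replicate 1 in the fit, so the shares describe the calls and test nothing.

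**Figure D1:**
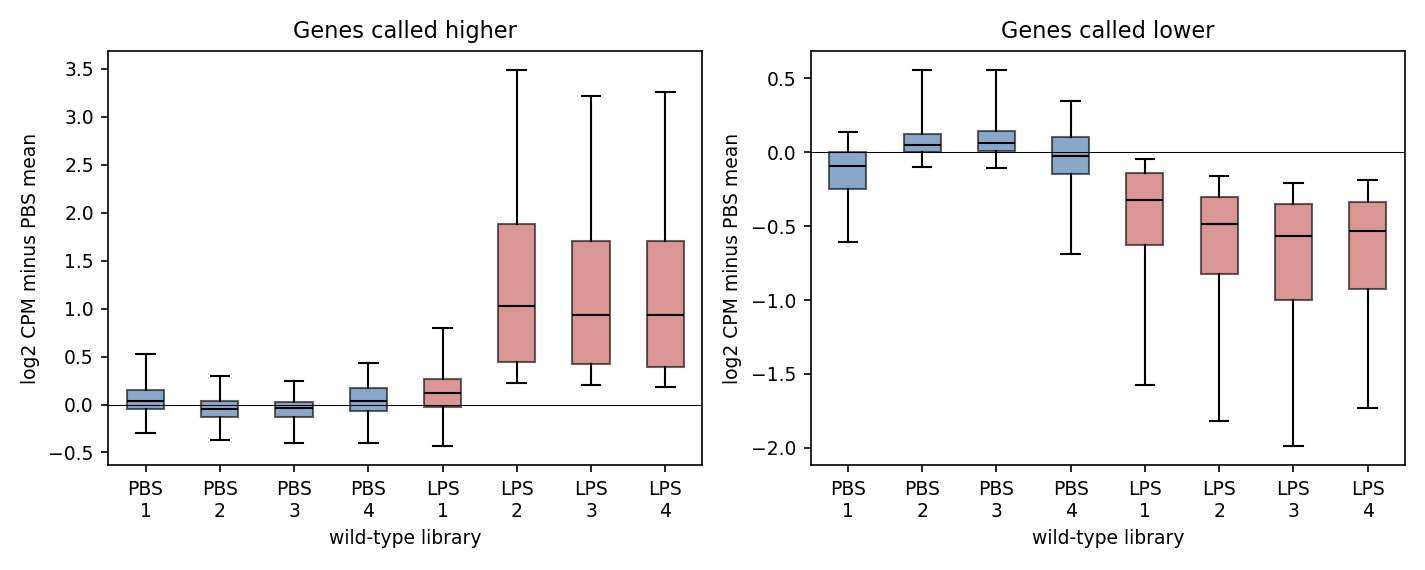
Difference in log2 CPM from the PBS mean, per wild-type library, for the 768 genes called higher (left) and the 626 called lower (right); boxes show the quartiles and median, whiskers the 5th and 95th percentiles over genes, blue PBS and red LPS. LPS replicate 1 has a median of 0.12 among the higher genes and of -0.32 among the lower genes.

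The count of calls depended on single libraries. Without LPS replicate 1, 1797 genes were higher (10.9%) and 1583 lower (9.59%). Without PBS replicate 2 or 3 the calls fell from 1394 to 625 or 621, and without LPS replicate 2, 3 or 4 to 758, 538 or 694. Without PBS replicates 2 and 3 together, which resembled each other most, 2 genes were called, Mob3b and Sccpdh, both lower; Sccpdh is named after its values were seen. A fit of the 8 wild-type libraries alone called 0 genes with edgeR (3012 had an unadjusted p below 0.05). Over all 16 libraries DESeq2 called 2096 genes, and limma-voom, run with a weight for the quality of each library, called 4684. No call of the 1394 was called with the opposite sign in any of these fits. Beside each gene list below, brackets give the lowest and highest count with any 1 wild-type library left out, where the count moved by 1.5 times or more or from 0; the number tested can also shift. The high end came without LPS replicate 1 unless another library is named, and the low end without PBS replicate 2 or 3 or LPS replicate 2, 3 or 4.

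**Figure D2:**
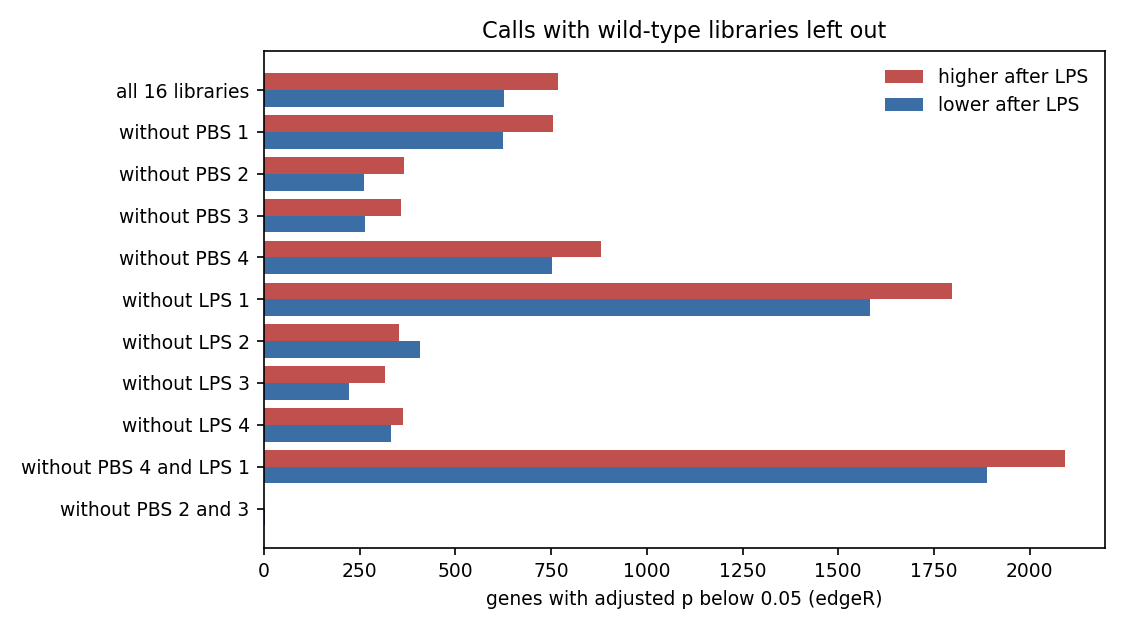
Number of genes with an adjusted p below 0.05 (edgeR; red higher, blue lower after LPS) with all 16 libraries and with the named wild-type libraries left out. The bars are longest without PBS replicate 4 and LPS replicate 1 (2092 and 1888 genes) and vanish at 0 and 2 genes without PBS replicates 2 and 3.

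The 4 marker genes showed the pattern at its plainest. Lcn2 (ENSMUSG00000026822; chr2:32384633-32388252, minus strand, GRCm38), which encodes the iron-sequestering acute-phase protein lipocalin-2, stood at 0.261, 0.0603, 0.133 and 0.0533 CPM in PBS replicates 1 to 4. It stood at 0.641, 238, 209 and 237 CPM in LPS replicates 1 to 4. Replicate 1 thus held 21 Lcn2 counts against 2 to 9 in the PBS libraries, above all of them yet far below the 7104 to 11917 counts of its group. The fitted log2 fold change was 10.37 ± 1.38 (SE; adjusted p = 0.00251, edgeR).

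Cfb (ENSMUSG00000090231; chr17:34856374-34862518, minus strand) encodes complement factor B of the alternative pathway. Its levels were 0.203, 0.151, 0.299 and 0.213 CPM after PBS and 0.336, 11.5, 9.31 and 11.9 CPM after LPS, a log2 fold change of 5.24 ± 0.87. Icam1 (ENSMUSG00000037405) encodes the adhesion molecule by which endothelium holds leukocytes. It measured 2.29, 2.02, 1.86 and 2.56 CPM after PBS and 3.05, 27.2, 23.9 and 26.3 CPM after LPS (3.2 ± 0.51). In both genes the groups did not overlap, although replicate 1 exceeded the highest PBS library only slightly.

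Mog (ENSMUSG00000076439), a surface protein of the outer myelin sheath, went the other way in all 4 libraries. It measured 62.3, 79.0, 80.0 and 78.1 CPM after PBS and 36.8, 40.4, 28.3 and 18.0 CPM after LPS (-1.28 ± 0.18, adjusted p = 0.00251, edgeR). Here replicate 1 lay inside its group. Exact two-sided permutation tests on log2 CPM gave p = 0.0286 for each of Lcn2, Cfb, Icam1 and Mog, the smallest that 4 against 4 allows. Every gene whose groups do not overlap gives this value, and these markers were chosen with earlier results of these data known. The value therefore restates the lack of overlap and adds no evidence of its own. Tspo itself, read widely as a marker of activated glia, stood at 2.52, 2.59, 2.06 and 5.17 CPM after PBS and at 2.63, 11.9, 9.4 and 10.1 CPM after LPS. That difference of 1.46 ± 0.6 did not pass (adjusted p = 0.147, edgeR; exact permutation p = 0.0571), but passed at 1.76 without LPS replicate 1 and at 1.46 without the library labelled knockout PBS replicate 1.

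**Figure D3:**
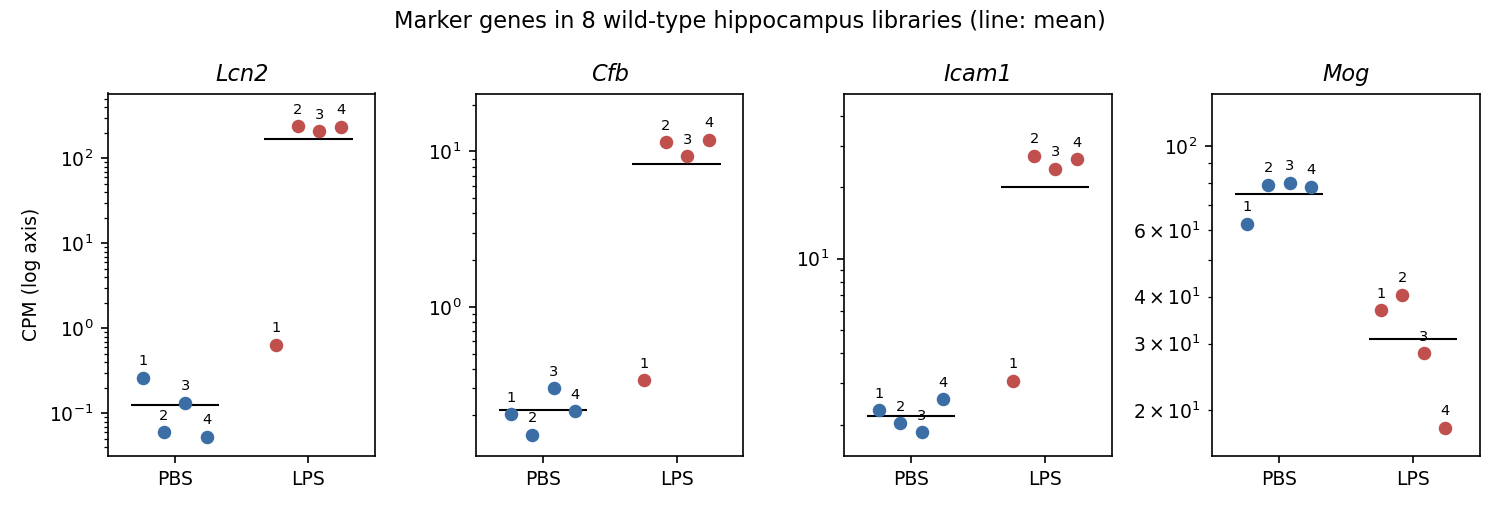
CPM (log axis) of Lcn2, Cfb, Icam1 and Mog in the 4 PBS (blue) and 4 LPS (red) wild-type libraries, with the replicate number beside each point and the group mean as a line. LPS replicate 1 lies near PBS for Lcn2, Cfb and Icam1 (0.641, 0.336 and 3.05 CPM) and with its group for Mog (36.8 CPM).

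Promoters from RefSeq (GRCm38.p6; 250 bases before to 50 after the start) were matched by symbol for 600 of the 768 higher genes, 473 of the 626 lower genes and 12127 of all genes tested. The interferon-stimulated response element, searched on both strands as GAAA and GAAA with 2 free bases between them, lay in 8.67% of the higher, 1.9% of the lower and 3.02% of all promoters. NF-kappaB matches (GGG, then 3 free bases, then TTCC or TCCC, both strands) lay in 16.5%, 10.4% and 12.1%, and STAT matches (TTCNNNGAA, a palindrome) in 10.2%, 6.34% and 6.83%. These shares are descriptions, and a match is not a bound site. The stretches around the interferon elements of 4 called interferon genes are shown. They come from 16 interferon, GTPase and MHC genes named after the values were seen, of which 11 had a promoter entry and 7 held a match. In the 4 shown, the matches lie before the start and outside annotated exons. Capitals mark the matches, on the strand of the gene.
Isg15: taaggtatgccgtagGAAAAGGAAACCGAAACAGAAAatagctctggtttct
Trim30a: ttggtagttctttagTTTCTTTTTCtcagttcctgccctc
Ifitm2: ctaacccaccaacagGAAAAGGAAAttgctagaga
Ifit1: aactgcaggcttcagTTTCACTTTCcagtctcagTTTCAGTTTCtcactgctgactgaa

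They lie at chr4:156200860-156200911 (minus strand), chr7:104465205-104465244 (minus), chr7:140955988-140956022 (minus) and chr19:34640770-34640828 (plus). For contrast, the windows upstream of Icam1 (chr9:21015690-21015939, plus) and Mog (chr17:37023399-37023648, minus) are shown as a marker that rose and a marker that fell. The other markers that rose could not be shown: Cfb had no promoter entry, and the Lcn2 window opened inside an annotated exon. The Icam1 window holds 1 STAT match, in capitals, whose first base lies 42 bases before the start. The Mog window holds none of the motifs searched. Sites that depart from the letters searched, such as NF-kappaB sites without GGG, were not counted in either window.
Icam1: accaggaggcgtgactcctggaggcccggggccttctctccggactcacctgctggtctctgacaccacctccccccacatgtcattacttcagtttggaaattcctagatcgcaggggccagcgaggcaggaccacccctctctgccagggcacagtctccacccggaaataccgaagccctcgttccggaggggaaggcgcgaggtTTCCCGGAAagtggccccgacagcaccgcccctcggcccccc
Mog: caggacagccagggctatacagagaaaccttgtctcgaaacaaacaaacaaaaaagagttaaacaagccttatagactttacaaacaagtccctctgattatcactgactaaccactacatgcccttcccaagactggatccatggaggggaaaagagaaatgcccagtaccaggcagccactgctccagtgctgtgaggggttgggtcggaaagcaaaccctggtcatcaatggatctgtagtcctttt

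Sensing and signalling genes rose in part, and the order in which the lists are given is not an order in time. Of 20 genes of the LPS receptor complex and the Toll-like receptors, 4 rose [2 to 11] and 0 fell. Cd14, the LPS co-receptor, measured 1.51, 1.81, 1.29 and 1.44 CPM after PBS and 1.56, 7.36, 5.58 and 5.75 CPM after LPS (1.74 ± 0.33), and Tlr2, which senses bacterial lipoproteins, rose by 2.41 ± 0.53. Replicate 1 lay below every PBS library in 8 of the 20 genes (over all genes tested 23.6%), while replicate 2 lay above every PBS library in 19 (over all genes 30.9%). Of 20 NF-kappaB subunits and feedback inhibitors 8 rose [2 to 10]. The cofactor gene Bcl3 went from 0.145 to 0.426 CPM after PBS to 0.336, 4.16, 4.29 and 4.21 CPM after LPS, with replicate 1 inside the PBS range. Tnip1, which restrains NF-kappaB, rose little but in all 4 libraries, from 22.98 to 26.9 CPM to 28.5 to 29.2 CPM (0.23 ± 0.05). The kinase gene Ikbke also rose in all 4 (1.1 ± 0.24).

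Cytokine pathways followed. Of 23 genes of the IL-6 family and STAT3 pathway 7 rose [3 to 8] and 0 fell, including Socs3, the feedback inhibitor of that pathway, at 2.0 to 3.16 CPM after PBS and 3.76, 9.74, 10.6 and 9.55 CPM after LPS. The receptor genes Osmr (1.32 ± 0.29) and Il4ra (1.5 ± 0.28) rose as well. In the IL-1, TNF and inflammasome list 10 of 20 rose [6 to 15] and 1 fell. Casp4 (the mouse caspase-11 that binds intracellular LPS) rose by 2.84 ± 0.45, and replicate 1 with 0.58 CPM lay above the PBS range of 0.145 to 0.271 CPM. The decoy receptor gene Il1r2 rose by 3.34 ± 0.67, although replicate 1 with 0.122 CPM was below every PBS library. The TNF receptor gene Tnfrsf1a rose by 1.18 ± 0.22. The member that fell was Il33, an alarmin stored in oligodendrocytes and astrocytes, at 48.4 to 65.6 CPM after PBS and 37.9, 34.6, 25.02 and 21.6 CPM after LPS (-0.98 ± 0.15).

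Of 20 chemokine and receptor genes tested (of 31 listed), 8 rose [6 to 15, of up to 27 tested] and 1 fell [1 to 2]. Ccl19, which guides lymphocytes, measured 0.0996 to 0.266 CPM after PBS and 0.794, 1.96, 1.44 and 1.11 CPM after LPS, so all 4 LPS libraries were higher (2.79 ± 0.38). Ccl12, which attracts monocytes, rose by 3.9 ± 0.68 with replicate 1 at 0.366 CPM, inside the PBS range of 0.0332 to 0.373 CPM. Cxcl16, a membrane-bound chemokine, rose by 2.53 ± 0.46, or 2.86 without replicate 1, which with 1.25 CPM lay inside the PBS range. Cxcl12, which holds leukocytes at the vessel wall and guides precursor cells, fell from 70.5 to 93.8 CPM to 61.4, 50.8, 39.0 and 40.0 CPM.

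Interferon genes rose widely. Of 37 interferon-stimulated effectors tested, 28 rose [18 to 36] and 0 fell, with a median log2 fold change of 1.7. Replicates 2, 3 and 4 lay above every PBS library in 36, 37 and 36 of them, where the share over all genes was 27.3% to 30.9%. Replicate 1 did so in 6, a share below that over all genes (24.4%). Irf7, the factor that amplifies type I interferon, measured 1.3 to 1.83 CPM after PBS and 1.44, 21.4, 22.97 and 20.2 CPM after LPS (3.37 ± 0.55). Isg15, a ubiquitin-like modifier, measured 0.83 to 1.21 CPM and 1.16, 7.34, 7.93 and 6.23 CPM. In both genes replicate 1 lay inside the PBS range. Usp18 and Trim30a, which restrain these pathways, rose by 2.14 ± 0.43 and 1.74 ± 0.36, or 2.45 and 2.06 without replicate 1.

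Ifitm2, which hinders virus entry, and Ifi204, a DNA sensor, rose in all 4 LPS libraries: replicate 1 held 7.63 CPM of Ifitm2 (PBS 4.48 to 6.31 CPM) and 0.336 CPM of Ifi204 (PBS 0.116 to 0.241 CPM), against 24.5 to 25.7 and 5.04 to 6.52 CPM in the others. Ifit1, a binder of foreign RNA, stood at 2.69 CPM there and at 10.8 to 13.01 CPM in replicates 2 to 4. Of 15 guanylate-binding proteins and immunity-related GTPases, which attack vacuoles that hold microbes, 14 rose and 0 fell [0 to 1 fell]. Gbp2 measured 2.62 to 3.23 CPM after PBS and 3.21, 41.7, 33.2 and 35.7 CPM after LPS, and Irgm1 5.61 to 7.03 CPM and 7.66, 29.3, 28.0 and 25.8 CPM. Gbp4 and Gbp6 rose by 3.36 ± 0.54 and 2.69 ± 0.44. Members of the Gbp, Ifi and Ifitm families resemble each other, so the division of reads among copies is uncertain.

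Of 27 genes of the MHC, peptide loading and the immunoproteasome, 18 rose and 0 fell [0 to 1 fell]. H2-T23, which encodes the non-classical MHC molecule Qa-1, measured 9.8 to 11.6 CPM after PBS and 17.2, 41.0, 39.3 and 36.6 CPM after LPS (1.62 ± 0.24). Its replicate 1 lay above every PBS library and below the other 3. Nlrc5, the transcriptional activator of MHC class I, rose only in replicates 2 to 4 (9.26 to 9.4 CPM), with replicate 1 at 0.855 CPM inside the PBS range of 0.825 to 0.995 CPM. Psmb8, an immunoproteasome subunit, did likewise (1.68 against 13.5 to 16.04 CPM).

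Complement and iron genes moved with them. Of 22 complement genes tested 14 rose and 0 fell [0 to 1 fell]. C1qb, a chain of the initiator C1q that microglia make, measured 25.01 to 33.04 CPM after PBS and 29.7, 87.3, 80.8 and 73.4 CPM after LPS, and C1ra, a C1 protease, rose by 2.59 ± 0.45. C5ar1, the C5a receptor, rose by 2.69 ± 0.5. Of 13 acute-phase and iron genes tested (of 24 listed) 6 rose [4 to 14, of up to 21 tested; 14 also without PBS replicate 1] and 1 fell. Cp, ceruloplasmin, rose from 13.6 to 20.9 CPM to 76.3, 87.6 and 96.1 CPM in replicates 2 to 4 and stood at 16.2 CPM in replicate 1. Slc11a1, a metal transporter of phagocytes, rose by 1.56 ± 0.3. The member that fell was Slc40a1, which encodes ferroportin, the cell's iron exporter: it measured 7.9 to 9.16 CPM after PBS and 5.86, 4.1, 2.97 and 3.14 CPM after LPS (-1.08 ± 0.18).

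Microglial genes divided. Of 24 activated or phagocytic microglia genes tested 15 rose [10 to 21] and 0 fell, and of 20 homeostatic genes 2 rose [0 to 5] and 4 fell [1 to 10]. Msr1, a scavenger receptor, stood at 0.16 to 0.261 CPM after PBS and 0.214, 17.4, 11.4 and 11.7 CPM after LPS. The Fc receptor gene Fcgr3 measured 6.44 to 6.85 CPM and 7.48, 24.01, 23.3 and 21.6 CPM, so replicate 1 lay just above PBS. Pilra, an inhibitory myeloid receptor, and Gpr84, a fatty acid receptor, rose by 3.71 ± 0.59 and 3.92 ± 0.7.

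P2ry12, the ADP receptor of resting microglia, measured 23.8, 22.6, 22.8 and 25.3 CPM after PBS and 20.1, 6.06, 6.14 and 4.97 CPM after LPS. Its log2 fold change of -1.35 ± 0.33 became -2.05 without LPS replicate 1. The fructose transporter gene Slc2a5 fell from 3.62 to 4.29 CPM to 3.24, 0.58, 0.969 and 0.684 CPM, and its change of -1.54 became -2.41 without that library. Fcrls, a scavenger receptor, fell in all 4 libraries, to 13.9, 9.66, 8.63 and 7.53 CPM from 15.4 to 20.7 CPM. Ltc4s, leukotriene C4 synthase, was lower by 1.55 on the log2 scale (-1.55 ± 0.41) and rested on PBS replicate 4, whose 6.63 CPM exceeded the others' 1.6 to 2.69 CPM; without it the change was -0.94 and did not pass. P2ry6, a UDP receptor that drives phagocytosis, rose (1.33 ± 0.36).

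Reactive astrocyte genes rose in 13 of 22 cases [7 to 17], with 0 falling. Timp1, an inhibitor of metalloproteases, measured 0.0332 to 0.302 CPM after PBS and 0.336, 6.88, 9.19 and 10.2 CPM after LPS, while the asparaginase gene Aspg and the proteoglycan gene Srgn rose by 2.06 ± 0.38 and 1.51 ± 0.3. Of 20 astrocyte transporter, channel and identity genes 1 rose [1 to 3] and 6 fell [1 to 8, the high end without PBS replicate 4]. The member that rose was Aldh1l1, a folate enzyme used as an astrocyte marker, from 43.2 to 51.2 CPM to 52.5, 69.95, 90.8 and 66.7 CPM. Slc7a10, a carrier of small neutral amino acids, fell from 26.7 to 34.3 CPM to 24.9, 17.4, 17.5 and 18.2 CPM. The bicarbonate carrier gene Slc4a4 fell in all 4 libraries (-0.48 ± 0.11), as did Acsbg1, an acyl-CoA synthetase gene (-0.3 ± 0.07).

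The vessel wall showed both directions. Of 20 endothelial adhesion and activation genes tested 12 rose [8 to 17] and 1 fell [1 to 2]. Selp, which encodes P-selectin, the first tether for leukocytes, was at 0.029 CPM in PBS replicate 1 and at 0 in the other 3, and measured 0.305, 5.32, 5.2 and 7.37 CPM after LPS; no fold is given against so few counts. Ch25h, which oxidises cholesterol, rose from 0.213 to 0.58 CPM to 0.825, 6.14, 7.2 and 7.96 CPM, and Lrg1, a secreted glycoprotein, by 3.58 ± 0.57. In these genes replicate 1 was the lowest LPS library yet above every PBS library.

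Of 23 blood-brain barrier genes 0 rose [0 to 4] and 7 fell [2 to 10], so the absence of rises rested on LPS replicate 1. The junction gene Jam2 measured 34.2 to 49.3 CPM after PBS and 33.2, 27.1, 26.7 and 29.0 CPM after LPS (-0.62 ± 0.11). Slco1c1, which carries thyroid hormone into the brain, fell from 46.1 to 62.2 CPM to 40.2, 27.1, 18.5 and 22.9 CPM. The lactate carrier gene Slc16a1 and the VEGF receptor gene Flt1 fell by smaller amounts (-0.44 ± 0.1 and -0.68 ± 0.18). Replicate 1 lay below every PBS library in 14 of these 23 genes, where the share over all genes was 23.6%.

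Wnt signalling maintains the barrier. Of 27 Wnt genes 0 rose [0 to 1] and 8 fell [4 to 8]. Wls, the carrier that secretes Wnt proteins, measured 34.5 to 40.5 CPM after PBS and 29.5, 20.1, 23.5 and 24.5 CPM after LPS (-0.6 ± 0.1), and the target and inhibitor gene Nkd1 and the receptor gene Fzd6 fell by -0.64 ± 0.11 and -0.75 ± 0.16. Lef1, a transcription factor of the pathway, fell from 10.47, 23.5, 26.3 and 7.03 CPM to 5.8, 3.6, 4.08 and 6.36 CPM. Its high values were those of PBS replicates 2 and 3, the libraries rich in neighbouring-region markers, and its call was lost with the score of those markers as a covariate. Of 18 pericyte and smooth muscle genes 0 rose [0 to 1, the high end without PBS replicate 1] and 2 fell [1 to 3], Rgs5 (-0.66 ± 0.1) and Abcc9 (-0.33 ± 0.09).

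Leukocyte transcripts rose with the vessel genes. Of 10 neutrophil, monocyte and lymphocyte genes tested (of 25 listed) 6 rose [2 to 10], and the summed level of the 23 measured was 8.2 to 8.93 CPM after PBS and 9.96, 29.2, 27.8 and 32.5 CPM after LPS. The neutrophil calprotectin genes S100a8 and S100a9 measured at most 0.106 and 0.29 CPM after PBS, 0.183 and 0.153 CPM in LPS replicate 1, and 2.94 to 4.71 and 4.36 to 6.59 CPM in replicates 2 to 4. Ptprc, the pan-leukocyte gene that microglia also express, rose by 0.87 ± 0.21. Red blood cell transcripts summed to 820, 432, 406 and 63.6 CPM after PBS and 12.6, 107, 62.3 and 108 CPM after LPS. The part of blood left in the tissue in these rises was not tested. In bulk tissue, more or fewer cells of a type and more or less RNA per cell cannot be told apart, here and for every cell type above and below.

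**Figure D4:**
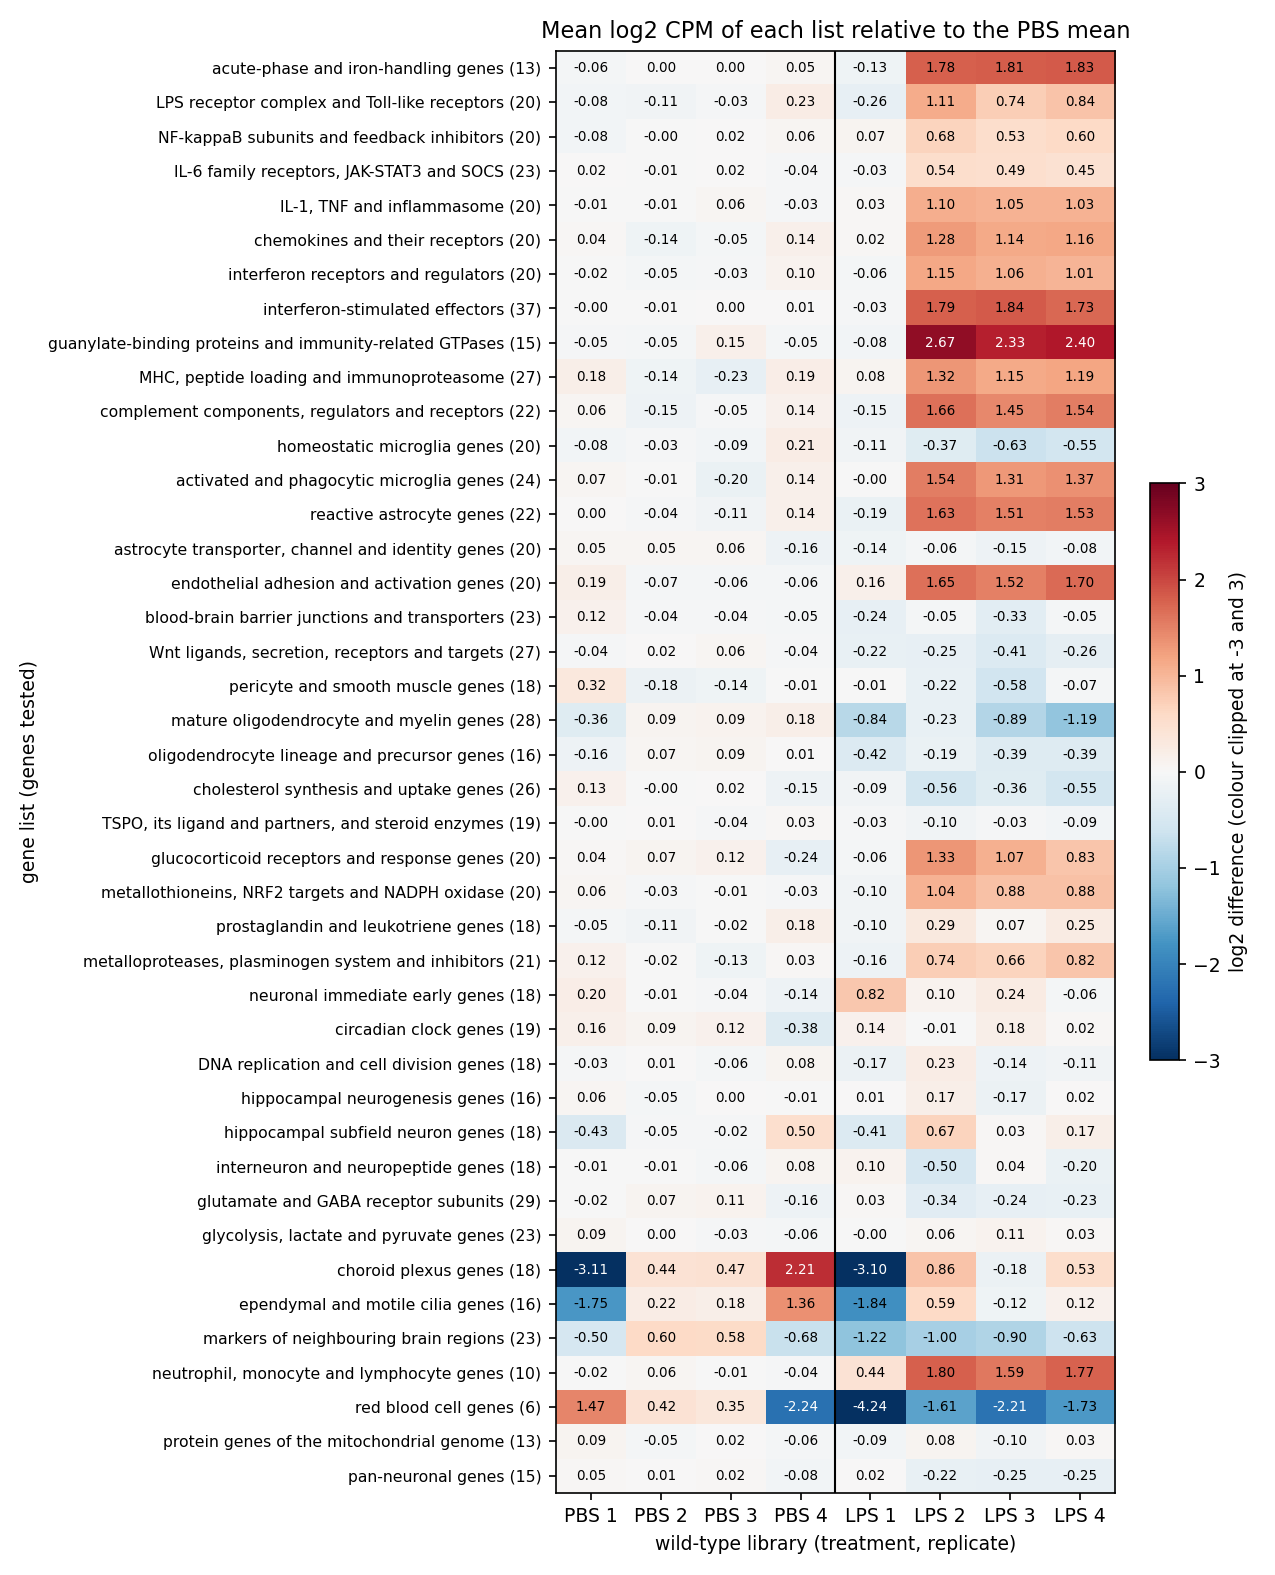
Mean log2 CPM of each gene list relative to the PBS mean in the 8 wild-type libraries (columns), with the number of genes tested in brackets and the value in each cell; colour is clipped at -3 and 3. LPS replicates 2 to 4 are red from acute-phase to complement genes, while replicate 1 is near 0 there. LPS replicate 1 stands out at 0.82 for neuronal immediate early genes and -4.24 for red blood cell genes. For choroid plexus genes it is at -3.10, beside -3.11 in PBS replicate 1.

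Of the gene lists, that of mature oligodendrocyte and myelin genes held the most falls with all libraries in the fit. Of 28 mature oligodendrocyte and myelin genes 18 fell and 1 rose, with a median log2 fold change of -0.86. Ugt8a, which makes the myelin lipid galactocerebroside, measured 62.6, 88.2, 86.6 and 78.6 CPM after PBS and 39.0, 23.4, 16.7 and 14.6 CPM after LPS (-1.75 ± 0.23). The connexin gene Gjb1, whose channels couple layers of myelin, fell from 16.01 to 23.6 CPM to 10.8, 9.44, 6.37 and 4.59 CPM. The carbonic anhydrase gene Car2 fell by 1.11 on the log2 scale (-1.11 ± 0.15). In each of these genes all 4 LPS libraries lay below all PBS libraries.

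The abundant structural messages did not follow as 1 block. Mbp, myelin basic protein, measured 2980 to 3979 CPM after PBS and 1926, 3990, 2428 and 1721 CPM after LPS, and Mobp, another myelin structural gene, 1048 to 1364 CPM and 628, 1757, 956 and 699 CPM; neither passed. LPS replicate 2 held the highest Mbp and Mobp levels of all 8 libraries while its Ugt8a and Mog were low. Replicates 1 to 4 lay below every PBS library in 27, 14, 23 and 24 of the 28 genes. Over all genes tested the shares were 23.6%, 30.7%, 26.6% and 26.6%. They lay above every PBS library in 0, 10, 2 and 1 of the 28, against 24.4%, 30.9%, 27.8% and 27.3% over all genes. The 28 genes summed to 5374, 11161.5, 6438 and 4996 CPM in LPS replicates 1 to 4, so replicate 2 lay inside the PBS range of 8395 to 11187 CPM. PBS replicate 1, which like LPS replicate 1 lacked choroid plexus, also had the lowest summed level of its group (8395 against 10612 to 11187 CPM). With the choroid plexus score as a covariate 18 genes fell and 1 rose, and without both libraries 17 and 1.

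The member that rose was Apod, named here after its values were seen, a lipid carrier of oligodendrocytes: it measured 173 to 209 CPM after PBS and 126, 1506, 798 and 774 CPM after LPS (2.1 ± 0.45). Replicate 1 lay below PBS. Of 16 lineage and precursor genes 0 rose [0 to 3] and 6 fell [3 to 7, the high end without PBS replicate 1], among them the transcription factor gene Olig1 (103 to 139 CPM to 83.1, 96.2, 81.7 and 78.3 CPM), C1ql1 (-0.92 ± 0.16) and Enpp6, a marker of newly forming oligodendrocytes (-1.01 ± 0.21). Further falls in all 4 libraries were those of Pllp (plasmolipin, a myelin membrane protein, -1.52 ± 0.26), the lipid transporter gene Abca8a (-1.47 ± 0.21), the motor gene Myo1d (-1.2 ± 0.17) and Unc5b (a netrin receptor, -1.56 ± 0.21).

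Cholesterol synthesis, which supplies myelin and membranes, fell in part. Of 26 genes of cholesterol synthesis and uptake 11 fell [4 to 18] and 1 rose [0 to 2]. Nsdhl measured 17.1 to 18.4 CPM after PBS and 13.5, 9.78, 12.5 and 11.2 CPM after LPS (-0.58 ± 0.08), and Dhcr7, the last step, 32.9 to 37.1 CPM and 30.05, 21.8, 22.8 and 18.6 CPM. Sqle, squalene epoxidase, and Msmo1, a sterol oxidase, had log2 fold changes of -0.59 ± 0.12 and -0.71 ± 0.16 and both passed. Srebf2, the pathway's transcription factor, had a value of -0.4 ± 0.14 that did not pass. Replicate 1 lay below every PBS library in 8 of the 26 genes and replicates 2, 3 and 4 in 22, 18 and 22, where 23.6% of all genes lay so in replicate 1 and 26.6% to 30.7% in the others.

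Of 20 glucocorticoid receptor and response genes 9 rose [4 to 14] and 0 fell [0 to 1]. Plin4, a lipid droplet coat protein, measured 4.0 to 6.09 CPM after PBS and 3.66, 183, 131 and 83.8 CPM after LPS (4.29 ± 0.87), so replicate 1 was below every PBS library. Cdkn1a, the cell cycle inhibitor p21, measured 12.1 to 17.3 CPM and 21.6, 121.4, 82.6 and 60.0 CPM, and here replicate 1 was above them. The sulfotransferase gene Sult1a1 and the transcription factor gene Zbtb16 rose by 1.87 ± 0.37 and 0.66 ± 0.14.

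Of 20 metallothionein, NRF2 and NADPH oxidase genes 9 rose. Cybb, the catalytic subunit of the phagocyte oxidase, measured 0.365 to 0.696 CPM after PBS and 0.55, 10.46, 5.79 and 4.56 CPM after LPS, and its partner Ncf1 rose by 2.09 ± 0.35. Mt1, a metal-binding protein, measured 116 to 140 CPM and 118, 491, 450 and 386 CPM. Of 18 prostaglandin and leukotriene genes 3 rose [2 to 5] and 2 fell [0 to 3]: Ptges, which makes prostaglandin E2, measured 2.08 to 3.33 CPM and 3.73, 6.94, 7.49 and 7.6 CPM, and Alox5 and its partner Alox5ap rose by 2.25 ± 0.47 and 0.94 ± 0.22. Of 21 proteases and inhibitors 7 rose [3 to 12], such as the urokinase receptor gene Plaur (2.72 ± 0.49), and 4 fell [2 to 4, the high end without PBS replicate 1], such as Mmp15 (-0.94 ± 0.14) and Serpinb1a (-1.57 ± 0.24). Among further large rises were those of the phospholipase gene Pla2g3 (2.43 ± 0.42), the stress kinase gene Map3k6 (2.35 ± 0.37), the crosslinking enzyme gene Tgm2 (1.72 ± 0.3) and Cyp1b1, which oxidises steroids and fatty acids (1.63 ± 0.26). The blood cell genes Fermt3 and Ptpn6 rose by 1.7 ± 0.28 and 1.79 ± 0.3, with replicate 1 just above PBS. Of 23 glycolysis, lactate and pyruvate genes 3 rose [0 to 4, the high end without PBS replicate 1] and 2 fell [0 to 6]. Their median log2 fold change was -0.02. Hk2 and Pdk4, which steer glucose use, were among those that rose (0.9 ± 0.22 and 1.04 ± 0.26).

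**Figure D5:**
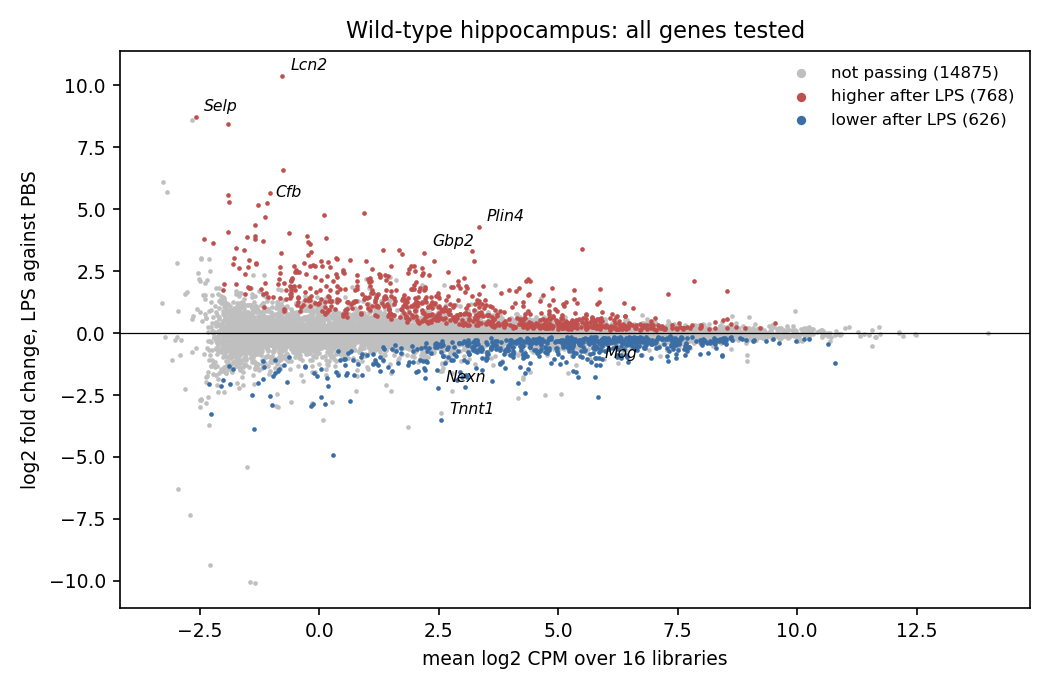
Log2 fold change after LPS against mean log2 CPM over the 16 libraries for all 16269 genes tested, with the 768 higher genes in red, the 626 lower genes in blue and the rest in grey. The largest rises, such as Lcn2 at 10.37, belong to genes of low mean level, and the fall of Mog is -1.28.

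Few neuronal genes passed the test. The lists of hippocampal subfield neurons, interneurons, neurogenesis, cell division, choroid plexus, ependyma and mitochondrial genome genes held 0 members that passed in edgeR, and at most 2 of any list in either direction with a wild-type library left out. Of 15 pan-neuronal genes 2 fell [1 to 5], the neurofilament genes Nefh (68.3 to 161 CPM to 67.4, 43.7, 50.7 and 60.4 CPM) and Nefm. Replicates 1 to 4 lay below every PBS library in 2, 7, 8 and 10 of these 15, where the shares over all genes were 23.6%, 30.7%, 26.6% and 26.6%. Of 29 glutamate and GABA receptor subunits 1 rose [0 to 2] and 0 fell [0 to 5]. Without PBS replicate 4 and LPS replicate 1 together, 1 receptor subunit rose and 8 fell, and 5 subfield genes rose and 0 fell. The receptor subunit that rose with all libraries was Grin1, from 557 to 575 CPM to 636, 697, 666 and 614 CPM (0.21 ± 0.05). Among 18 immediate early genes Junb alone passed [0 to 1 rose, 0 to 1 fell] (0.75 ± 0.2), at 59.6 to 80.3 CPM after PBS and 136, 97.6, 130 and 92.9 CPM after LPS. Egr1 and Arc, which neurons transcribe on firing, stood at 608 and 417 CPM in LPS replicate 1 against 180 to 313 and 138 to 227 CPM in the other 7 libraries and did not pass. Of 19 clock genes 2 rose [1 to 4] and 0 fell [0 to 1], the rises being Per3 (0.67 ± 0.14) and Cry2 (0.27 ± 0.06).

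Markers of neighbouring regions fell in 5 of 23 cases [0 to 5], with 0 rising. Tnnt1, a troponin of thalamic neurons, measured 9.08, 31.3, 34.0 and 2.16 CPM after PBS and 1.16, 1.16, 1.32 and 3.07 CPM after LPS, and Synpo2, an actin-bundling protein, 14.1, 80.4, 81.1 and 13.6 CPM and 6.35, 7.3, 6.81 and 15.1 CPM. The high values are those of PBS replicates 2 and 3. Nexn, Mrvi1, Plekhg1 and Eps8l2, among the largest falls of all, had the same 2 libraries highest: Plekhg1 measured 36.5, 125, 129 and 33.4 CPM after PBS and 19.5 to 31.4 CPM after LPS. With the marker score of these regions as a covariate 220 genes were higher and 174 lower. Nexn, Mrvi1 and Eps8l2 lost their calls. Tnnt1, Synpo2 and Plekhg1 lost theirs too, but they are members of the score, so for them this was partly built in. Under it 14 interferon effectors still rose and 12 mature oligodendrocyte genes fell.

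Genes that separated all 4 LPS libraries from PBS most widely were chosen among those with a mean log2 CPM of at least 1. Below that level Selp, Ccl19, Lcn2 and Casp4 separated the groups more widely than any of them. Glp2r, a gut hormone receptor gene, measured 4.29, 1.9, 2.09 and 1.06 CPM after PBS and 8.06, 13.2, 19.6 and 20.3 CPM after LPS (2.71 ± 0.38). Cdc25b, a cell cycle phosphatase, measured 16.9 to 19.7 CPM and 27.6, 26.7, 27.7 and 26.3 CPM (0.59 ± 0.12), with replicate 1 as high as the rest. Dennd6b, a trafficking gene, measured 67.6 to 77.8 CPM and 98.4, 101, 104 and 107 CPM, and Slc26a8, an anion carrier gene, 3.55 to 4.07 CPM and 5.14 to 5.7 CPM. The nuclease gene Trex1, the cytokine receptor gene Csf2rb2, the kinase gene Pik3cg and the thrombopoietin gene Thpo rose by 1.15, 1.47, 0.82 and 0.75, also in all 4.

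Among falls, Mob3b, a kinase activator gene, shared the lowest adjusted p of all genes tested with Sccpdh: it measured 6.41, 7.33, 8.53 and 8.76 CPM after PBS and 3.39, 3.12, 1.94 and 2.69 CPM after LPS (-1.48 ± 0.16, adjusted p = 0.000867, edgeR). Sp7, a transcription factor gene, measured 2.69 to 4.21 CPM and 1.65, 1.48, 0.822 and 1.57 CPM, Prr5l, an mTOR complex gene, 15.2 to 21.9 CPM and 9.19, 10.2, 6.34 and 5.58 CPM, and the monocarboxylate carrier gene Slc16a4 fell by 1.08 on the log2 scale (-1.08 ± 0.23). Replicate 1 had the highest LPS level of Mob3b and Sp7, close to the next library in each. Between the 2 libraries that share a title code and a high Y-linked level, PBS replicate 4 and LPS replicate 1, the log2 CPM difference was -1.08 in Mog and 2.86 in Glp2r, and -0.04 over the interferon effectors. Some inflammatory genes differed in this pair as well, in both directions. LPS replicate 1 was higher by 2.69 in Lcn2, 1.72 in Ch25h, 1.4 in Ccl19 and 0.55 in Cfb. The difference was -1.2 in Ifi27, -1.09 in Tlr2, -1.02 in Gpr84 and -0.96 in Tspo. It was -0.48 over the list of the LPS receptor complex and Toll-like receptors and -0.29 over the complement genes.

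Of the 140 genes chosen for naming that passed, 33 lost their call when a single library was left out. The inflammatory ones among them were Tnip1, Nfkb2, Cebpd, Alox5ap, P2ry6, Pik3cg, Ptprc and Ngp, with Hk2, Pdk4, Junb, Cry2, Thpo, Dennd6b, Slc26a8 and Grin1 among the other rises. The falls so affected were those of P2ry12, Slc2a5, Ltc4s, Acsbg1, Slc4a4, Slc16a1, Flt1, Abcc9, Nkx2-2, Nefm, Hmcn1, Nexn, Mrvi1, Plekhg1, Ramp3, Synpo2 and Tnnt1. In all but Slc16a1 and Tnnt1, PBS replicate 2 or 3 was among the libraries whose omission ended the call.

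The response was also set against that of the knockout by the interaction of genotype and LPS, in which 187 genes passed (1.15%). An interaction value is the change in wild type less the change in the knockout. Mog passed, at -1.19 ± 0.25 (adjusted p = 0.0489, edgeR). Lcn2, Cfb and Icam1 had interaction values of 11.26 ± 5.3, 5.58 ± 1.34 and 2.72 ± 0.71 that did not pass (adjusted p = 0.234, 0.0535 and 0.0637, edgeR). The wild-type changes were -1.28 in Mog and 10.37, 5.24 and 3.2 in these genes. The interaction values were thus near the whole wild-type change in size, and not passing does not mean that the genotypes responded alike. Tspo in the library labelled knockout PBS replicate 1 was 2.33 CPM, within the wild-type PBS range, against 0.152 to 0.47 CPM in the other 3 of that group, which goes against its label. These values include that library.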

How the data were processed

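Total RNA from mouse hippocampus had been sequenced from NEBNext Ultra libraries, per the labels' protocols. The deposited table holds an estimated count per gene and library, stored as whole numbers; the tools listed in the submitters' processing notes, with no role stated, are Salmon 1.9.0, MultiQC 1.13, DESeq and DESeq2, and the sources used here give no genome build. Symbols and positions came from GENCODE M21 (GRCm38), in which 105 of 19449 identifiers, with 0.0537% of the counts, were absent. Groups came from the labels.

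In R 4.3.3 with edgeR 4.0.16, filterByExpr removed 3180 genes. After TMM scaling, all 16 libraries entered 1 quasi-likelihood model with a mean per group (4 groups), so that the knockout libraries share in the estimate of spread. The contrast of wild-type LPS with wild-type PBS was adjusted by the Benjamini-Hochberg method at 0.05, and an SE is the size of a log2 fold change over the root of its F statistic. Log2 CPM values, and the list scores made from them, use a prior count of 2. Alternatives used DESeq2 1.42.0, limma 3.58.1, other filters, covariates and left-out libraries. The scripts were tested on simulated data.

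Members and gene lists were chosen with earlier results of these data known. Genes named were the 5 markers, the 20 largest non-overlapping changes per direction with a mean log2 CPM of at least 1, up to 4 members of each list that passed with the smallest p and up to 2 that did not, and the 10 widest gaps per direction; not all are printed. Some lists share members. Precision was set by the spread between libraries rather than by depth, and no molecular identifiers are stated. PBS replicates 2 and 3 differed by more than sampling noise (chi-square per gene 3.78, against at least 20.2 for PBS replicate 1 and any other wild-type library) and were counted as 2.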

Additional observations from a re-analysis of the deposited data

Results flagged for a closer look

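For each of the genes chosen for naming and for 8 list scores, the 4 libraries of each wild-type group were checked for 1 that stands apart, by the share of the group's range (log2 CPM) taken by its gap to the nearest library, against Dixon's 95% critical value. Of 310 groups checked 75 passed it (24.2%). Chance flags about 1 in 20 independent groups, but these genes share libraries and were chosen with the pattern of LPS replicate 1 known, so the share is a description and no test. In 53 of these the library was LPS replicate 1, lying lowest. The share was 0.99 for Bcl3 and Nlrc5, 0.98 for Lcn2 and Srgn, 0.97 for Trim30a, 0.96 for Ifitm2, 0.95 for Irf7 and 0.94 for Icam1 and the interferon effector score. It was 0.93 for Cfb and Aspg, 0.92 for Psmb8 and Tgm2, 0.91 for Nfkb2, Ifi204, Gbp2, Fcgr3, Alox5 and Plaur, and 0.9 for Socs3, Osmr, Irgm1 and Msr1. It was 0.89 for Cxcl16, Gbp6, Gpr84 and Selp, 0.88 for Ifit1, Pilra, Timp1, Ch25h, Lrg1 and S100a9, and 0.87 for Il1r2, Isg15, H2-T23, C1ra, C5ar1, Cp and Ptges. The remaining shares were 0.86 for Ncf1, 0.85 for Casp4, P2ry6, Trex1, Fermt3 and the leukocyte score, 0.84 for Tspo, Tnfrsf1a, C1qb, S100a8 and Hk2, and 0.83 for Tlr2 and Mt1.

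LPS replicate 1 stood highest of its group in P2ry12 (0.85), Slc7a10 (0.87) and Acsbg1 (0.83). Among LPS libraries, replicate 3 was lowest in Sp7 (0.84), and replicate 4 highest in Tnnt1 (0.87) and Synpo2 (0.84). PBS replicate 1 was lowest of its group in Mog (0.91), Bcl3 (0.85), C5ar1 (0.87), Nkd1 (0.86), Mobp (0.86), Olig1 (0.84) and the oligodendrocyte score (0.84), and highest in Selp (1), Zbtb16 (0.92) and Mt1 (0.89). PBS replicate 4 was lowest in Il4ra (0.85), Ifit1 (0.87), Msmo1 (0.88) and Arc (0.87), and highest in C1ql1 (0.89) and Slc16a4 (0.97).

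The change after LPS differed between wild type and knockout, by the interaction test of edgeR, in 47 of the genes checked. The adjusted p was 0.039 for Wls, lower after LPS in wild type relative to the knockout. It was 0.043 for Il33, Lef1, Rgs5, Ugt8a, Mmp15, Serpinb1a and Mob3b in the same direction and for Ccl19, Ifitm2, Trex1 and Csf2rb2 in the opposite one. It was 0.049 for Mog, Jam2, Car2 and Tnnt1 (relatively lower) and for Irf7, Gbp4, Pilra, Glp2r and Ptpn6 (relatively higher). Values that round to 0.05 belonged to 26 genes. Of these Gjb1, C1ql1, Abca8a, Unc5b, Prr5l, Myo1d, Nsdhl, Nefh, Nefm and Insc were relatively lower, and Ikbke, Isg15, Ifi204, Gbp2, Gbp6, Nlrc5, Psmb8, Fcgr3, Gpr84, Lrg1, Cybb, Mt1, Cdc25b, Thpo, Dennd6b and Fermt3 relatively higher. All of these include the library labelled knockout PBS replicate 1, whose Tspo level goes against its label.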

How the results depend on the processing

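The 1394 calls (768 higher, 626 lower) stayed within 1.5 times under RLE scaling, both filters, the replicate block, the choroid plexus and Y-linked covariates, and without any 1 knockout library. DESeq2 called 2096 (956 lower) and limma-voom with quality weights 4684 (2466 higher, 2218 lower). A fit of the 8 wild-type libraries called 0 higher, 0 lower and 0 in all. Leaving out 1 library gave 538 to 3380 calls, 316 to 1797 higher and 222 to 1583 lower. Without PBS replicate 1 and LPS replicate 1 together there were 3099 (1751 and 1348), with PBS replicates 2 and 3 summed 670 (394 and 276), and at an adjusted p below 0.01 357 (187 and 170). The last settings were chosen after seeing the data: without PBS replicate 4 and LPS replicate 1 3980 genes passed (2092 and 1888), without PBS replicates 2 and 3 together 2 (0 and 2), and with the neighbouring-region score as a covariate 394 (220 and 174). The cause of these shifts was not tested.

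With the 8 libraries alone Lcn2, Cfb, Icam1 and Mog kept log2 fold changes of 10.37, 5.24, 3.2 and -1.28 but did not pass (adjusted p = 0.0815, edgeR), and without PBS replicates 2 and 3 together of 10.1, 5.29, 3.06 and -1.18, which did not pass either (adjusted p = 0.0945 to 0.113, edgeR). Tspo passed with quality weights (1.91), without LPS replicate 1 (1.76), without the library labelled knockout PBS replicate 1 (1.46) and without PBS replicate 4 and LPS replicate 1 (2.13), and leaving out 1 library gave 1.25 to 1.83. Egr1 and Arc, which never passed, turned negative with quality weights (-0.0792 and -0.160), without LPS replicate 1 (-0.212 and -0.126), without it and PBS replicate 1 (-0.0790 and -0.0549), without it and PBS replicate 4 (-0.296 and -0.247) and with the neighbouring-region covariate (-0.0776 and -0.315). Leaving out 1 library gave -0.212 to 0.519 for Egr1 and -0.126 to 0.462 for Arc.

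With the replicate number as a block 1069 genes passed (556 higher, 513 lower), and 8 of the genes checked lost their call, against 132 with the 8 wild-type libraries alone, 135 without PBS replicates 2 and 3 together and 45 with the neighbouring-region covariate. The deviations of same-numbered PBS and LPS libraries correlated at 0.44, -0.05, 0.13 and -0.0035, and only replicate 1 correlated best with its own number. Both replicate 1 libraries also nearly lacked choroid plexus transcripts. Whether same-numbered libraries share more than the number was not tested.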

Other observations

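Some LPS libraries also stood apart in neuronal genes, of which few passed the test. In each of the 3 lists below at most 1 gene passed with all libraries, Junb among the immediate early genes and Grin1, an NMDA receptor subunit, among the receptors, both higher. LPS replicate 1 lay above every PBS library in 13 of 18 immediate early genes, against 5, 8 and 3 in replicates 2 to 4, where the share over all genes tested was 24.4% for replicate 1 and 27.3% to 30.9% for the others. Replicates 1 to 4 lay below every PBS library in 3, 18, 14 and 12 of 29 glutamate and GABA receptor subunits, so replicates 2 to 4 shared this. In the 18 interneuron and neuropeptide genes they did so in 4, 13, 3 and 5, so there replicate 2 stood apart. Over all genes tested the share was 23.6% for replicate 1 and 26.6% to 30.7% for the others. Of 19 genes of TSPO, its ligand and partners and the steroid enzymes that were tested, 2 fell, the steroid 5-alpha-reductase gene Srd5a1 and Acbd3, and 0 rose. Without LPS replicate 1, 3 fell and 3 rose, and without PBS replicate 1 or 2 or LPS replicate 2 none did.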
